A study of Mus musculus with 6 samples.

Results

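Described here are 9 genes of the interleukin-1 (IL-1), tumor necrosis factor (TNF) and inflammasome system, followed through single-cell RNA profiles of mouse skin. They are the ligands Il1a, Il1b and Tnf, the receptor antagonist Il1rn, the receptors Il1r1 and Il1r2, the inflammasome components Nlrp3 and Casp1, and Ptgs2, the inducible cyclooxygenase. Each was taken by its gene symbol, and each matched 1 of the 32285 gene rows in all 6 libraries. On GRCm38 (mm10) they lie at chr1:40074079-40125231 (Il1r2), chr1:40225080-40317257 (Il1r1), chr1:150100031-150108227 (Ptgs2), chr2:24336853-24351494 (Il1rn), chr2:129299610-129309972 (Il1a), chr2:129364570-129371139 (Il1b), chr9:5298517-5307265 (Casp1), chr11:59541568-59566956 (Nlrp3) and chr17:35199381-35202007 (Tnf).

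IL-1 alpha and IL-1 beta both signal through the receptor encoded by Il1r1. Il1rn encodes a secreted antagonist of that receptor and Il1r2 a decoy receptor that binds ligand without signalling. IL-1 beta is made as an inactive precursor, and caspase-1, activated on inflammasome scaffolds such as the one nucleated by NLRP3, cleaves it. IL-1 and TNF both activate NF-kappa-B, which induces Ptgs2, the enzyme that commits arachidonic acid to prostaglandins. In skin, keratinocytes are known to hold IL-1 alpha and the antagonist, and dermal gamma delta T cells to respond to IL-1 beta. Transcript levels of Il1b and Casp1 carry no information on cleavage, which was not measured.

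The study compared whole skin of UP_Del mice, in which an enhancer upstream of Il2ra was deleted, with alopecia and without alopecia, and of C57BL/6 wild-type (WT) mice. The groups are called Alopecia, No alopecia and WT. All mice were untreated adult females of 17 to 18 weeks, and the label field for genotype gives the same strain name for all 6 libraries. The skin was freed of hypodermis and digested with Liberase and DNase at 37 degrees and then with trypsin, and live CD45+ cells (leukocytes) and CD45- cells were sorted and run as separate libraries. Each group therefore has 1 CD45+ and 1 CD45- library. The number of mice behind a library is not given, so no difference between groups has a replicate check and none was tested. Intervals in brackets are exact 95% intervals that cover counting error only.

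After filtering, the CD45+ libraries held 8850 cells in Alopecia, 3233 in No alopecia and 6307 in WT, and the CD45- libraries 4778, 14372 and 3278 cells in the same order, with 19556258 to 101436040 unique molecular identifiers (UMIs) per library. Ptprc, which encodes CD45, was at 721, 655 and 791 UMIs per 1000000 (CPM) in CD45+ cells of Alopecia, No alopecia and WT, against 0.193, 0.069 and 1.06 CPM in CD45- cells. Il2ra, the gene whose enhancer was deleted, was at 133 CPM in Alopecia, 150 CPM in No alopecia and 240 CPM in WT CD45+ cells. The CD45- library of No alopecia stands apart in cell number and in the share of barcodes that failed the filters, which was 30.4% in Alopecia, 7.56% in No alopecia and 26.7% in WT. Library pairs shared 24 to 228 cell barcodes. Cells were clustered without the 9 genes, and clusters were named from marker genes as "-like" classes, or by their leading genes where the markers did not decide. Many myeloid cells carried T-cell RNA. The share of cells with at least 3 UMIs of T-cell receptor complex genes was 51.2% in Alopecia, 56.1% in No alopecia and 73.4% in WT macrophage-like cells, 57.0%, 65.0% and 70.1% in Langerhans-like cells, and 15.9%, 24.4% and 32.7% in inflammatory myeloid-like cells. Values without those cells stand beside some of the results they touch, not all. Ratios that turned round without those cells are listed near the end.

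The 250 bases before a RefSeq transcription start (GRCm38.p6) were searched for 5 short motifs of factors known to act on these promoters, and 13 starts of the 9 genes had an entry. Shown in full are the 6 stretches that carry a match in a ligand gene, in Il1rn or in Ptgs2. Capitals mark the matches.
Ptgs2, chr1:150099781-150100030, plus strand: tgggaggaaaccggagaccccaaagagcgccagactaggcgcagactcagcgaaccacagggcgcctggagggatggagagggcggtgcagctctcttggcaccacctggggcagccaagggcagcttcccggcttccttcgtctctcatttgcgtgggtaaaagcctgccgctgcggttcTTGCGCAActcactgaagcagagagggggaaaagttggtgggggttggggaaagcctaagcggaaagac
Il1a, chr2:129309973-129310222, minus strand: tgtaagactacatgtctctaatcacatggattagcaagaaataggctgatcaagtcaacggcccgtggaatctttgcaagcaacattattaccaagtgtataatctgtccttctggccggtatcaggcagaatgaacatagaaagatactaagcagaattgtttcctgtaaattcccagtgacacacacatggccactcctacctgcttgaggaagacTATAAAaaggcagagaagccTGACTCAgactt
Il1rn, chr2:24336610-24336859, plus strand: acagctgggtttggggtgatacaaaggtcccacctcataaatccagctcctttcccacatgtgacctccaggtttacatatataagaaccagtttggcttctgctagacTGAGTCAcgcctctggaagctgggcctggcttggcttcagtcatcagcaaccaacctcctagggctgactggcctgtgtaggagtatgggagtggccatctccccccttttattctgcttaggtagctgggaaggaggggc
Il1rn at a second start, chr2:24345121-24345370, plus strand: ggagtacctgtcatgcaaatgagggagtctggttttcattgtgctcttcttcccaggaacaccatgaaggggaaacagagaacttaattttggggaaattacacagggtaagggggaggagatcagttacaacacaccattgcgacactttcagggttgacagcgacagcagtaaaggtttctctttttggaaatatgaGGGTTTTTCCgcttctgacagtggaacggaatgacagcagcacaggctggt
Il1b, chr2:129371140-129371389, minus strand: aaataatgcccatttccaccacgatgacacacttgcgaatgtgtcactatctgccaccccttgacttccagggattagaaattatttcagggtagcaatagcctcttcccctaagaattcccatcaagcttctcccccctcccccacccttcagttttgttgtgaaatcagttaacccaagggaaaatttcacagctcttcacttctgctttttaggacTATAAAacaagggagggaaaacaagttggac
Tnf, chr17:35202008-35202257, minus strand: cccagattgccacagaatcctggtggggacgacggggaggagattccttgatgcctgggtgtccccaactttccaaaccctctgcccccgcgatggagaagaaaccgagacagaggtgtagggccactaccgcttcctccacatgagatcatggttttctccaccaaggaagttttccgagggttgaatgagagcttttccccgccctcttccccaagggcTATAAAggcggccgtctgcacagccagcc
The capitals in Ptgs2 are a C/EBP motif (TTGCNNAA), 69 to 62 bases before the start. Those before the first Il1rn start are an AP-1 motif (TGANTCA) 141 to 135 bases before the start, and Il1a holds an AP-1 motif 12 to 6 bases before its start, in addition to a TATA box (TATAAA, searched on the gene's strand). The capitals in Il1b and Tnf are TATA boxes, 31 to 26 and 29 to 24 bases before the start. Among all 32851 promoter entries, the same window held the C/EBP motif in 9.56%, the AP-1 motif in 6.75% and the TATA box in 7.59%. The NF-kappa-B motif (GGGNN followed by TTTCC) was found in 1.41% of all entries and, among the 9 genes, at the second Il1rn start only (chr2, position 24345371), where the capitals lie 51 to 42 bases before it, and the CRE motif TGACGTNA, present in 2.52% of entries, in none of the 9. Motifs other than the TATA box were searched on both strands. A match is a run of letters and was not tested as a binding site.

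In the CD45+ libraries Il1b stood out in No alopecia, while Nlrp3, Tnf and Ptgs2 were highest in WT. Il1b was at 232 CPM in Alopecia (227 to 236), 377 in No alopecia (368 to 386) and 217 in WT (212 to 222). Alopecia was thus 0.614-fold of No alopecia (0.596 to 0.633), and No alopecia 1.74-fold of WT (1.68 to 1.80). Nlrp3, the inflammasome sensor, was at 14.3 and 14.01 CPM in Alopecia and No alopecia and at 26.6 in WT, so that Alopecia was 0.536-fold (0.485 to 0.592) and No alopecia 0.526-fold (0.459 to 0.602) of WT. Tnf was at 83.1, 73.4 and 111 CPM, and Ptgs2 at 23.1, 29.4 and 43.8 CPM, in Alopecia, No alopecia and WT. For these last 3 genes WT was the highest library and its interval overlapped neither UP_Del interval.

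The other members differed less across the CD45+ libraries. The antagonist Il1rn was at 39.5, 42.6 and 35.8 CPM in Alopecia, No alopecia and WT, the decoy receptor Il1r2 at 180, 191 and 201 CPM, and Casp1 at 18.7, 20.97 and 18.6 CPM. The signalling receptor Il1r1 was highest in Alopecia, at 91.6 CPM against 68.5 in No alopecia and 70.7 in WT. Il1a was close to the limit of detection in leukocytes, with 42, 17 and 54 UMIs in the whole libraries. At 1.5-fold either way, 1 of the 9 members was past the mark between Alopecia and No alopecia, where 17.7% of all genes tested were. Between No alopecia and WT 4 of 9 were past it (background 17.4%), namely Il1b higher and Il1a, Nlrp3 and Tnf lower, and between Alopecia and WT 3 of 9 (background 15.8%), namely Il1a, Nlrp3 and Ptgs2, all lower.

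In the CD45- libraries the genes of epidermal origin were highest in No alopecia. Ptgs2 was at 33.4 CPM in Alopecia (31.6 to 35.4), 109 in No alopecia (107 to 111) and 43.0 in WT (40.4 to 45.8). Il1a was at 1.57, 6.22 and 1.15 CPM and Il1rn at 21.5, 34.4 and 17.7 CPM in the same libraries. Against WT, No alopecia was 2.52-fold for Ptgs2, 5.41-fold for Il1a and 1.95-fold for Il1rn, and Alopecia was 0.308-fold, 0.253-fold and 0.624-fold of No alopecia. Tnf ran otherwise, at 5.82 and 5.23 CPM in Alopecia and No alopecia and 10.1 CPM in WT. Il1r1 (47.6, 35.9 and 43.6 CPM), Il1r2 (158, 141 and 160 CPM) and Casp1 (14.4, 12.1 and 13.7 CPM) stayed within 1.5-fold.

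Of the 8 members with enough counts in the CD45- libraries, 4 were past 1.5-fold between Alopecia and No alopecia, all lower, where 30.3% of all genes were past it either way and 5.71% were lower. Between No alopecia and WT it was 4 of 8, 3 of them higher (background 32.1% either way, 6.03% higher), and between Alopecia and WT 2 of 8 (background 10.2%). The all-gene median itself lay 0.21 log2 higher in Alopecia than in No alopecia, and 0.23 lower, at -0.23, in No alopecia than in WT. Trimmed mean of M-values (TMM) scaling, which evens out such a shift, brought that median to -0.02 for Alopecia over No alopecia and to 0.06 for No alopecia over WT. With it 4 of 8 members were again past 1.5-fold in each of these comparisons. All genes then divided into 15.3% higher and 10.7% lower for Alopecia over No alopecia, in place of 24.6% and 5.71%, and into 12.9% higher and 15.5% lower for No alopecia over WT, in place of 6.03% and 26.1%. Il1r2, within 1.5-fold either way, changed its sign between scalings, with a log2 ratio of Alopecia over No alopecia of 0.17 by total counts and -0.07 by TMM. For No alopecia over WT, Il1r1, Il1r2 and Casp1 changed sign as well, to log2 ratios of 0.0071, 0.10 and 0.12 by TMM. Il1b was barely present in CD45- cells, at 28, 125 and 35 UMIs, and in WT 23 of the 35 sat in 1 cell that also held Ptprc and Tyrobp UMIs. The log2 ratio of Alopecia over WT was -0.95 with that cell and 0.49 when the cell with most Il1b UMIs of each library was left out, a choice made after seeing the data. Nlrp3 had 1, 4 and 5 UMIs in the CD45- libraries.

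**Figure D1:**
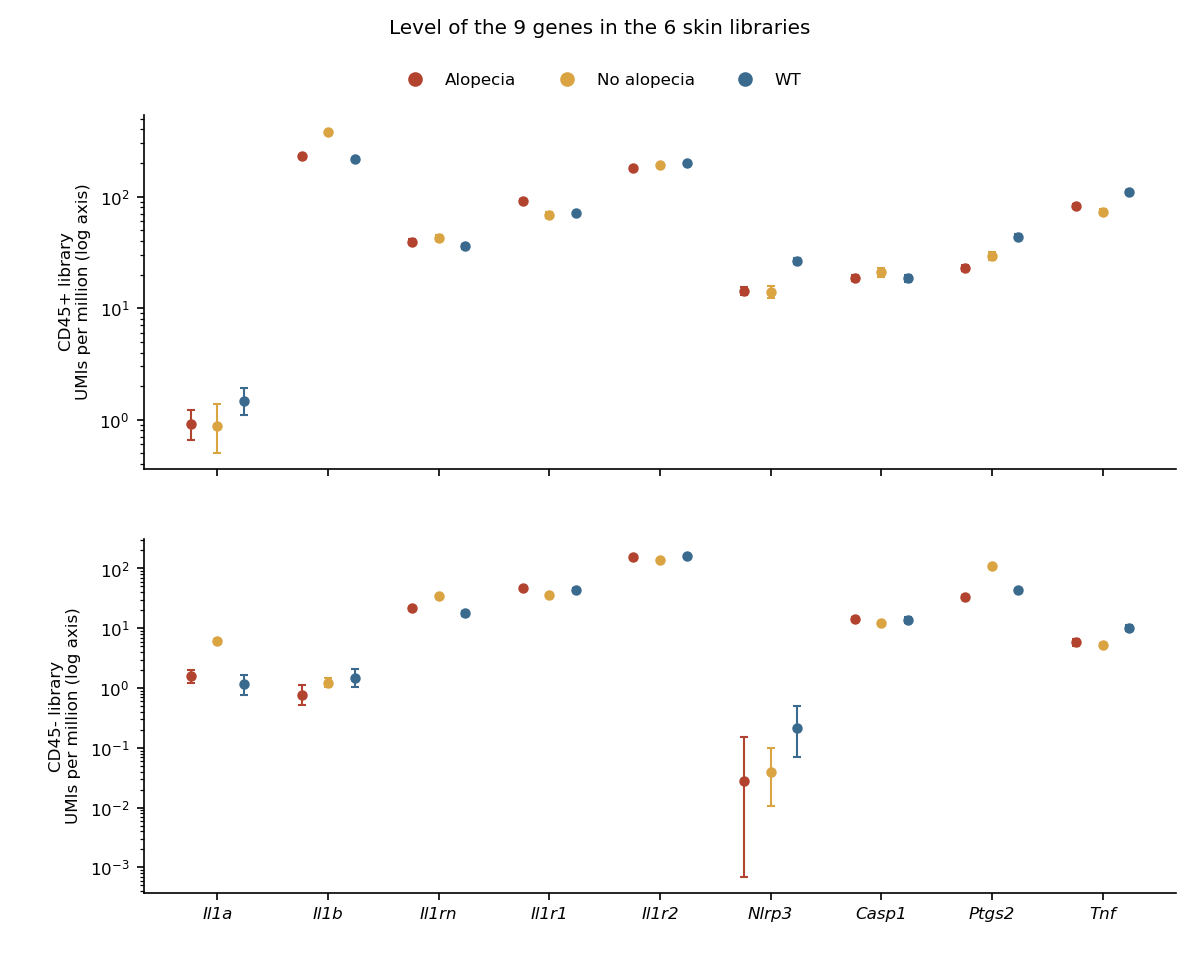
Level of each of the 9 genes in the 3 CD45+ libraries (top) and the 3 CD45- libraries (bottom), in CPM on log axes. Points are single libraries and bars exact Poisson intervals. Nlrp3, Tnf and Ptgs2 are highest in WT among CD45+ cells, and Ptgs2, Il1a and Il1rn are highest in No alopecia among CD45- cells.

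The 2 IL-1 ligands differed in their main sources, with some overlap. Il1b came mainly from myeloid cells, which held 96.6% of its UMIs in Alopecia, 91.0% in No alopecia and 93.8% in WT of the CD45+ sort. By level, pooled over the groups, the order was a myeloid class led by Flrt3 and Tnip3 (2642 CPM), type 2 conventional dendritic-like cells (1473 CPM), inflammatory myeloid-like cells (1253 CPM), a class led by S100a9 and S100a8 (1012 CPM) and a myeloid class that carried T-cell genes (963 CPM). This order did not hold in each library. Inflammatory myeloid-like cells stood below type 2 conventional dendritic-like cells in Alopecia (1041 against 1237 CPM) and in No alopecia (1003 against 1805 CPM) and above them in WT (1671 against 1569 CPM). The class with T-cell genes held 30.9% of all Il1b UMIs of the sort, and 87.2% to 90.7% of its cells carried T-cell receptor RNA. Langerhans-like (334 CPM) and macrophage-like cells (313 CPM) stood lower and did not differ beyond the spread of the libraries. After thinning to 1000 UMIs per cell, 72.2% of the Flrt3- and Tnip3-led cells (148 of 205) had an Il1b UMI, against 0 of 963 in a keratinocyte class led by Skint6, which allows a share of up to 0.312%. In the CD45- sort a few basal keratinocyte-like cells had Il1b UMIs, 11 cells in Alopecia, 73 of 2959 in No alopecia and 0 in WT, and none of these cells held a UMI of Lyz2, Tyrobp or Ptprc.

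The order of groups for Il1b differed by class. In the Flrt3- and Tnip3-led class the level was 2537 CPM in Alopecia, 3106 in No alopecia and 1842 in WT. In type 2 conventional dendritic-like cells it was 1237, 1805 and 1569 CPM, and in the class with T-cell genes 719, 1221 and 1191 CPM. Alopecia was below No alopecia in all 3 of these classes. Inflammatory myeloid-like and macrophage-like cells were instead highest in WT, as described further on. In the class with T-cell genes No alopecia was 1.03-fold of WT (0.970 to 1.08), below the ratio of the whole CD45+ libraries. That class had 241 of 3233 cells in No alopecia and 268 of 6307 in WT. Langerhans-like cells had 284 CPM in Alopecia, 352 in No alopecia and 389 in WT, where No alopecia over WT was 0.907-fold with an interval that includes 1 (0.806 to 1.02). Their 3 clusters did not share that order. Il1b was at 482, 396 and 459 CPM in the cluster led by Cd207, at 313, 413 and 354 CPM in one led by Tmem45b, and at 48.9, 142 and 222 CPM in one led by Osbp2 and Ltc4s. The last of these held 40.9% of the class in Alopecia, 17.1% in No alopecia and 23.4% in WT. In mast-like cells, tissue granulocytes of the dermis, Il1b was at 276 CPM in Alopecia, 466 in No alopecia and 169 in WT.

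Il1a came from keratinocytes in the CD45- sort, which held 96.5% of its UMIs in Alopecia, 98.7% in No alopecia and 100% in WT. Basal keratinocyte-like cells were the main source, with 13.1 CPM and 65.7% of the sort's UMIs, followed by suprabasal keratinocyte-like cells at 5.93 CPM. Within basal cells the level was 8.25 CPM in Alopecia (5.71 to 11.5), 13.9 in No alopecia (12.6 to 15.3) and 8.95 in WT (4.77 to 15.3). The interval of WT overlaps both others. Among leukocytes Il1a was sparse in every class. WT inflammatory myeloid-like cells had 19 UMIs in 6 cells (34.6 CPM, above the WT basal keratinocytes), and that class had 0 UMIs in Alopecia and in No alopecia. Macrophage-like cells had 12, 0 and 11 UMIs and Langerhans-like cells 10, 1 and 5 UMIs in Alopecia, No alopecia and WT. Of the 36 WT CD45+ cells with an Il1a UMI, 26 also held a UMI of the myeloid gene Lyz2. In Alopecia it was 15 of 27 such cells and in No alopecia 3 of 13. Among all CD45+ cells, 3012 of 8850 in Alopecia, 959 of 3233 in No alopecia and 1410 of 6307 in WT held a Lyz2 UMI.

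The antagonist Il1rn had myeloid and keratinocyte sources. Myeloid cells held 88.4%, 86.2% and 80.6% of its CD45+ UMIs in Alopecia, No alopecia and WT, and keratinocytes 98.5%, 99.3% and 99.0% of its CD45- UMIs. The Flrt3- and Tnip3-led class (482 CPM) and inflammatory myeloid-like cells (478 CPM) had the highest levels and did not differ beyond the spread of the libraries. Basal and suprabasal keratinocyte-like cells of the CD45- sort were at 56.1 and 51.5 CPM. Within basal cells Il1rn was at 62.6 CPM in Alopecia, 55.1 in No alopecia and 59.2 in WT, with overlapping intervals. In inflammatory myeloid-like cells 29.8% of cells in Alopecia, 42.2% in No alopecia and 43.6% in WT had UMIs of both Il1b and Il1rn.

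Tnf was mainly a lymphoid transcript. Lymphoid classes held 63.4% of its CD45+ UMIs in Alopecia, 59.6% in No alopecia and 58.9% in WT. The highest pooled levels were in dermal gamma delta T-like cells led by Tcrg-V6 (235 CPM), mast-like cells (234 CPM) and gamma delta T-like cells led by Trdv5 and Tcrg-V4 (225 CPM), whose library ranges overlap. Levels in the Tcrg-V6-led cells were 237, 264 and 226 CPM in Alopecia, No alopecia and WT, with overlapping intervals. In the Trdv5- and Tcrg-V4-led cells Tnf was at 207 and 202 CPM in Alopecia and No alopecia and at 290 in WT (263 to 318), above both. CD4 T-like cells were at 137, 93.9 and 117 CPM, and a lymphoid class led by Klra1, which encodes an Ly49 receptor, at 132, 85.1 and 141 CPM.

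In the CD45- sort, 43.8% of Tnf UMIs were in inner root sheath, hair shaft or matrix-like cells, the keratinocytes that build the growing hair. Their Tnf was at 21.2 CPM in Alopecia (17.9 to 24.9), 23.5 in No alopecia (19.2 to 28.4) and 33.1 in WT (28.4 to 38.4). It was spread over 43, 44 and 39 cells, with at most 14, 10 and 36 UMIs in 1 cell, and none of these cells had a UMI of Ptprc, Tyrobp or Lyz2. Basal keratinocyte-like cells had Tnf at 9.46, 8.30 and 26.2 CPM (39, 252 and 38 UMIs) in Alopecia, No alopecia and WT. Of the 38 UMIs in WT, 12 were in 1 cell.

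**Figure D2:**
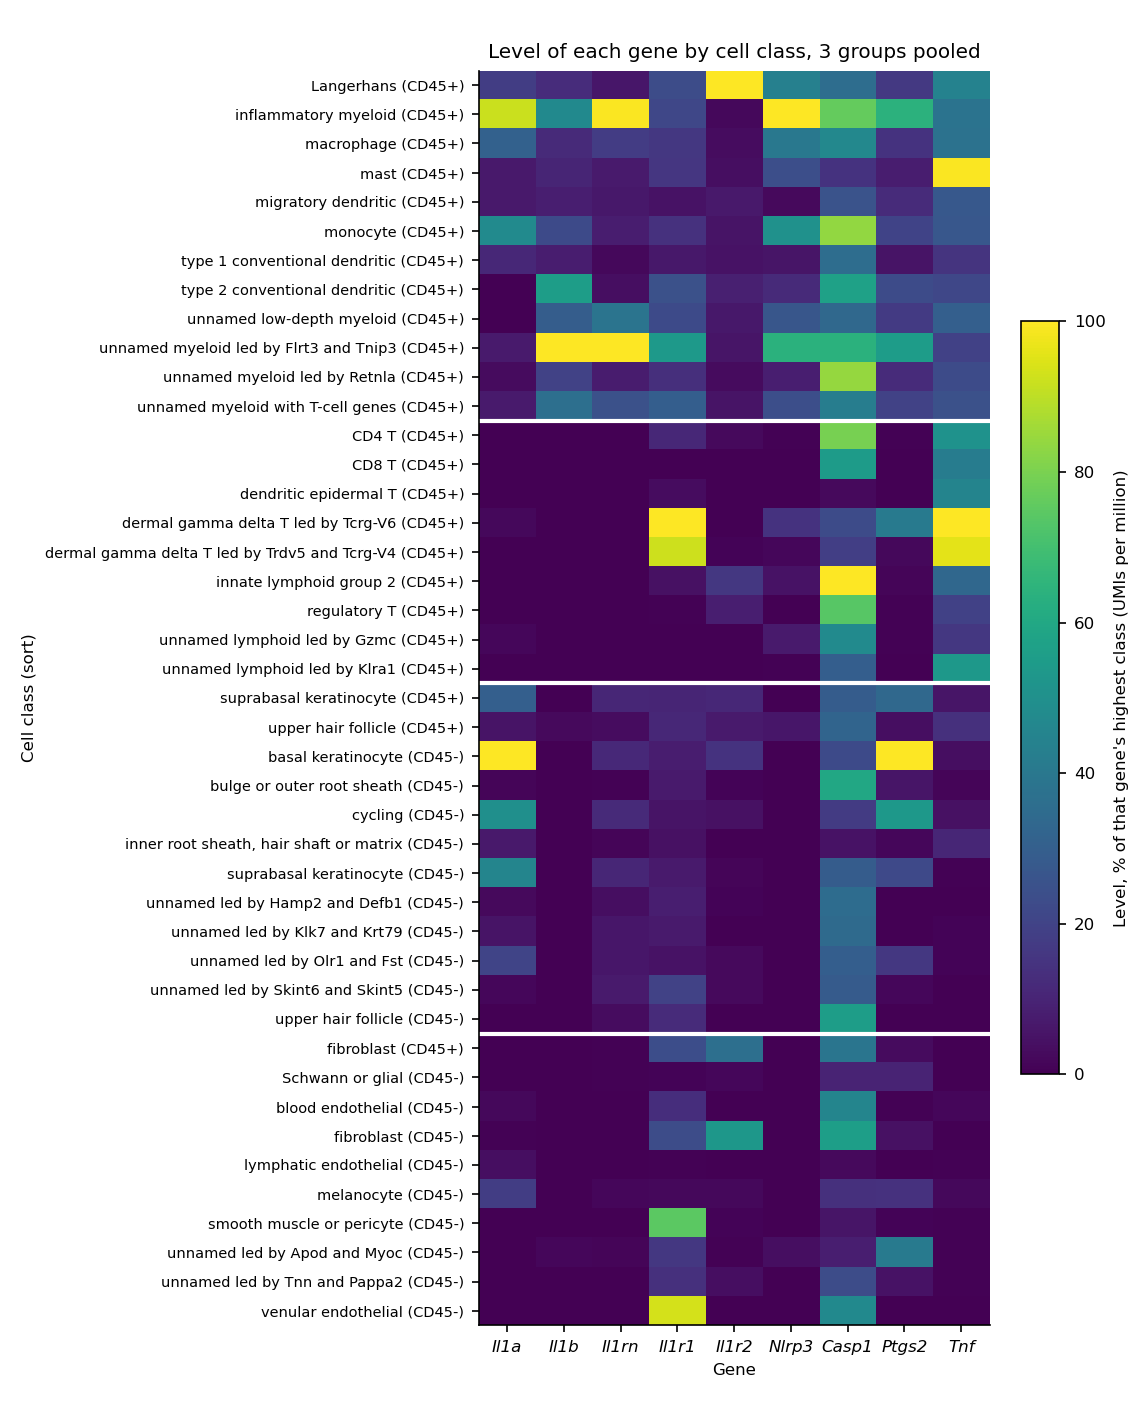
Level of each gene (columns) in the 43 cell classes of at least 100 cells (rows), the 3 groups pooled, as a percentage of that gene's highest class among those drawn, in CPM. White lines part myeloid, lymphoid, keratinocyte and stromal classes. Il1b, Il1rn and Nlrp3 are brightest in myeloid classes, Il1r1 in gamma delta T and venular endothelial classes, Il1r2 in Langerhans-like cells and fibroblasts, and Il1a and Ptgs2 in basal keratinocytes.

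The signalling receptor Il1r1 was highest in gamma delta T-like cells and in vessels. The Tcrg-V6-led cells had 393 CPM and 18.8% of the UMIs of the CD45+ sort, and the Trdv5- and Tcrg-V4-led cells 363 CPM and 28.3%. In the CD45- sort the highest levels were in venular endothelial-like cells, which line the vessels where leukocytes leave the blood (368 CPM), and in smooth muscle or pericyte-like cells (295 CPM), and fibroblasts had 90.9 CPM. After thinning, 30.1% of Tcrg-V6-led cells, 29.8% of Trdv5- and Tcrg-V4-led cells, 24.3% of pericyte-like and 23.2% of venular cells had an Il1r1 UMI, against 0 of 593 cells of a lymphoid class led by Gzmc.

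Across groups, Il1r1 in the Trdv5- and Tcrg-V4-led cells was at 382 CPM in Alopecia (363 to 403), 212 in No alopecia (186 to 240) and 430 in WT (398 to 465). No alopecia was the low library, and Alopecia was 1.80-fold of it (1.57 to 2.08). The Tcrg-V6-led cells were at 448, 349 and 368 CPM, which made Alopecia 1.28-fold of No alopecia (1.10 to 1.51). CD4 T-like cells followed the same order at a lower level, with 52.1, 17.2 and 44.2 CPM (79, 11 and 126 UMIs). Of these UMIs, 78, 11 and 123 were in 1 cluster, which held 37.7%, 25.2% and 24.8% of the class. Within that cluster Il1r1 was at 130, 58.6 and 136 CPM, so that No alopecia was lowest and Alopecia was not above WT. In Tcrg-V6-led cells 33.9%, 40.7% and 31.4% of cells in Alopecia, No alopecia and WT held UMIs of both Il1r1 and Tnf.

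In venular endothelial-like cells the intervals of the 3 groups overlapped (430, 349 and 369 CPM in Alopecia, No alopecia and WT). Smooth muscle or pericyte-like cells had Il1r1 at 216 CPM in Alopecia (158 to 289), 296 in No alopecia (250 to 347) and 419 in WT (315 to 547), from 37, 166 and 28 cells. The intervals of Alopecia and WT did not overlap there, and Alopecia was the low library. In bulge or outer root sheath-like keratinocytes of the follicle, Il1r1 was 3.63-fold in Alopecia over No alopecia, and Casp1 3.02-fold. The makeup of that class differed: a cluster led by Krt6a held 199 of 360 cells in Alopecia, 57 of 1094 in No alopecia and 72 of 206 in WT. Within that cluster Casp1 was at 65.6, 90.7 and 62.0 CPM, and within the other at 9.61, 8.99 and 8.05 CPM, so that the Casp1 difference was not present within either cluster. Il1r1 was at 74.1, 37.6 and 50.2 CPM in the Krt6a-led cluster (149, 17 and 34 UMIs) and at 19.2, 12.9 and 25.3 CPM in the other (24, 79 and 22 UMIs). It was higher in Alopecia than in No alopecia within both, by less in the second, where WT was highest.

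The decoy receptor Il1r2 was concentrated in Langerhans-like cells, the dendritic cells of the epidermis, which held 57.3% of its CD45+ UMIs at 1649 CPM. Their level was 1635 CPM in Alopecia (1591 to 1681), 1351 in No alopecia (1285 to 1419) and 1806 in WT (1753 to 1860), and 58.7% of thinned cells (402 of 685) had a UMI. Fibroblasts were the main CD45- source, with 54.1% of UMIs, and showed the same order, at 991, 737 and 1056 CPM in Alopecia, No alopecia and WT. Alopecia over No alopecia was 1.21-fold in Langerhans-like cells (1.14 to 1.28) and 1.35-fold in fibroblasts (1.29 to 1.40). Within the Cd207-led Langerhans-like cluster Il1r2 was at 908, 944 and 1022 CPM in Alopecia, No alopecia and WT. It was at 2090, 2080 and 2616 CPM in the Tmem45b-led and at 2367, 2156 and 3534 CPM in the Osbp2- and Ltc4s-led cluster. Alopecia and No alopecia were thus close within each cluster. The Osbp2- and Ltc4s-led cluster held 40.9%, 17.1% and 23.4% of the class. Basal keratinocyte-like cells held 36.1% of the CD45- UMIs, at 268, 236 and 222 CPM.

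Among lymphoid cells Il1r2 was highest in group 2 innate lymphoid-like cells (ILC2), tissue-resident producers of type 2 cytokines. Il1r2 in these cells was at 168 CPM in Alopecia (152 to 186), 402 in No alopecia (363 to 443) and 318 in WT (293 to 345). Alopecia was the low library, 0.419-fold of No alopecia (0.364 to 0.483) and 0.530-fold of WT (0.465 to 0.603), from 475, 163 and 342 cells. Regulatory T-like cells, which express Il2ra, had Il1r2 at 141, 121 and 137 CPM with overlapping intervals. Langerhans-like cells carried the 2 receptors together: 36.0%, 35.0% and 35.9% of cells in Alopecia, No alopecia and WT had UMIs of both Il1r1 and Il1r2.

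**Figure D3:**
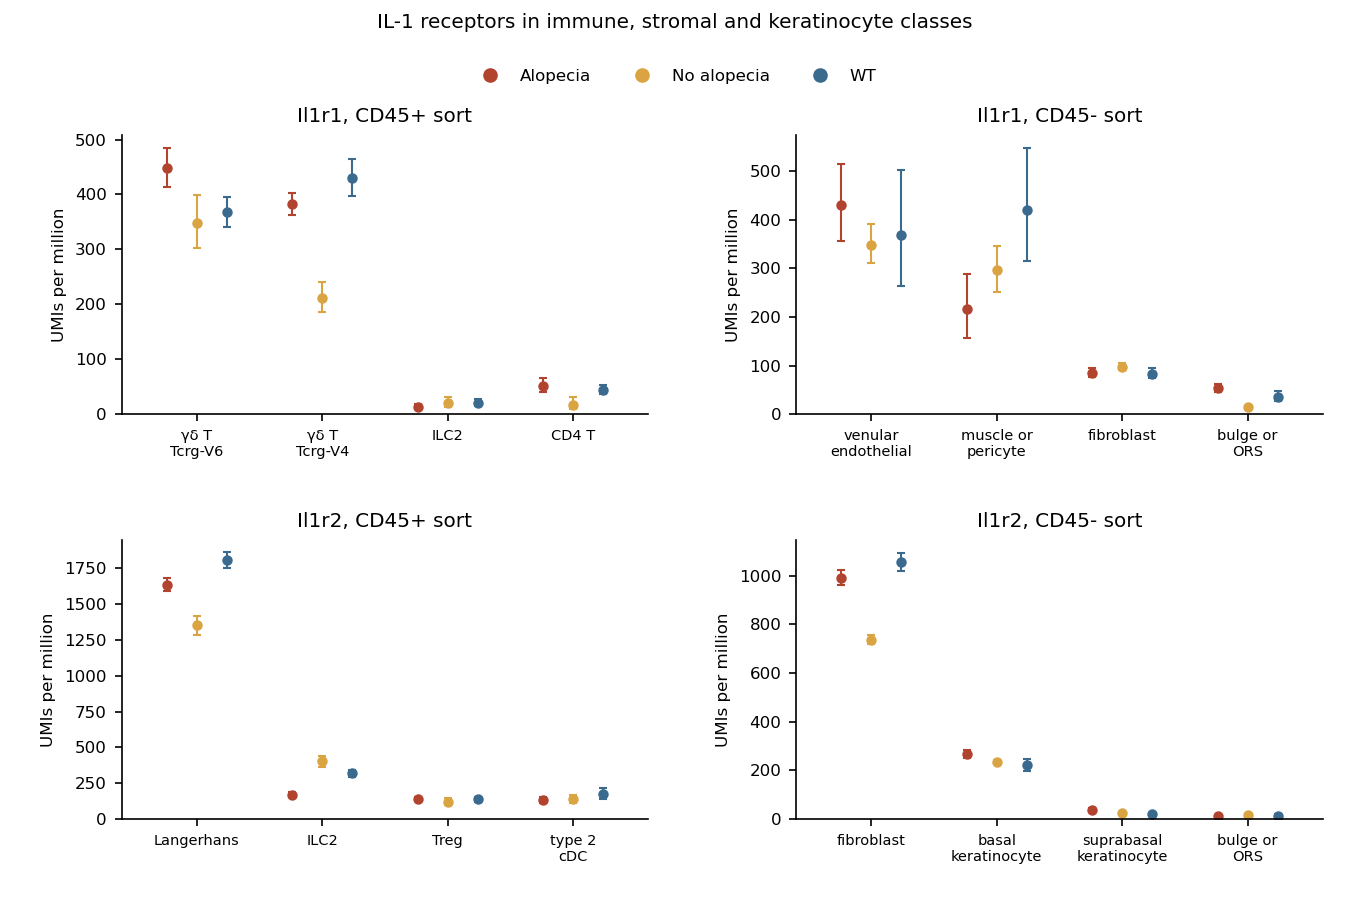
Il1r1 (top) and Il1r2 (bottom) in 4 classes each of the CD45+ sort (left) and CD45- sort (right), in CPM, with Alopecia, No alopecia and WT side by side. Points are single libraries and bars exact Poisson intervals. Il1r1 of the Tcrg-V4-led gamma delta T class is low in No alopecia, and Il1r2 of ILC2-like cells is low in Alopecia.

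The inflammasome pair had different distributions. Nlrp3 was myeloid, with 89.7%, 85.0% and 79.0% of its CD45+ UMIs in myeloid classes in Alopecia, No alopecia and WT. Pooled over the groups, inflammatory myeloid-like cells led (140 CPM), followed by the Flrt3- and Tnip3-led class (89.5 CPM), monocyte-like (70.9 CPM), Langerhans-like (61.2 CPM) and macrophage-like cells (55.8 CPM). The first of these was not above the second in Alopecia (83.9 against 96.5 CPM) or in No alopecia (58.6 against 60.9 CPM), only in WT (259 against 137 CPM). Casp1, the protease, was spread over lymphoid, myeloid, keratinocyte and stromal cells. Its pooled level was 54.7 CPM in natural killer-like cells (89 cells, 13.3 to 70.0 CPM over the libraries), 42.3 CPM in ILC2-like cells, 33.6 CPM in CD4 T-like cells and 31.2 CPM in regulatory T-like cells, and 73.7% to 79.3% of its CD45- UMIs were in keratinocytes.

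Casp1 of ILC2-like cells did not separate the groups, at 42.0, 44.1 and 41.7 CPM in Alopecia, No alopecia and WT, and Alopecia over WT was 1.01-fold (0.740 to 1.37). In regulatory T-like cells it was at 25.6 CPM in Alopecia (19.7 to 32.7), 47.2 in No alopecia (33.2 to 65.0) and 32.0 in WT (24.5 to 41.2). Fibroblasts of the CD45- sort had 17.2, 28.9 and 19.6 CPM, which made Alopecia 0.595-fold of No alopecia (0.449 to 0.7797).

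Outside the myeloid cells Nlrp3 was also seen in the Tcrg-V6-led gamma delta T-like cells, almost entirely in WT. These held 7 UMIs in Alopecia, 3 in No alopecia and 70 in WT, from 316, 108 and 407 cells, which is 5.04, 5.08 and 36.4 CPM. Alopecia over WT was 0.138-fold (0.0537 to 0.301). In WT the UMIs were spread over 27 cells, with 14 in the fullest, and 2 of those 27 cells held a UMI of the myeloid gene Lyz2, as did 14 of all 407 cells. Ptgs2 in the same class was at 72.7, 108 and 142 CPM and rested on few cells, with 114 of the 273 UMIs in WT in 1 cell.

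Across groups, the inflammatory myeloid-like and macrophage-like classes of both UP_Del skins had lower Nlrp3, Ptgs2 and Tnf than those of WT skin. Other myeloid classes shared this in part. The class with T-cell genes had Tnf at 47.6, 49.4 and 88.3 CPM in Alopecia, No alopecia and WT. Its Ptgs2 was at 50.9, 43.4 and 69.2 CPM, and its Nlrp3 was past 1.5-fold lower in both UP_Del libraries than in WT. Without cells carrying T-cell RNA, Ptgs2 of this class was higher in No alopecia than in WT. Ptgs2 ran the other way in the Retnla-led class, at 42.3 CPM in Alopecia, 28.3 in No alopecia and 8.66 in WT (72, 12 and 4 UMIs), where Alopecia was 4.89-fold of WT (1.83 to 18.4). Tnf there was at 52.9, 54.3 and 56.3 CPM, with overlapping intervals. Nlrp3 there was lower in Alopecia than in WT, past 1.5-fold. The same held for Nlrp3 in the cycling, mast-like, unnamed mixed and Gzmc-led lymphoid classes, and in upper hair follicle-like cells of the CD45+ sort. The inflammatory myeloid-like class was defined by markers such as Clec4e and Cxcl3. Its Nlrp3 was at 83.9 CPM in Alopecia (64.3 to 108), 58.6 in No alopecia (34.1 to 93.8) and 259 in WT (218 to 305). Its Tnf was at 54.1, 51.7 and 159 CPM, its Ptgs2 at 107, 169 and 270 CPM and its Il1b at 1041, 1003 and 1671 CPM in the same order. WT was the highest library for all 4 genes, and its interval overlapped neither UP_Del interval.

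Alopecia over WT in this class was 0.324-fold for Nlrp3 (0.237 to 0.440), 0.341-fold for Tnf (0.229 to 0.502), 0.396-fold for Ptgs2 (0.298 to 0.524) and 0.623-fold for Il1b (0.565 to 0.686). Il1rn was 0.802-fold, and Il1r1 was 1.86-fold (1.20 to 2.94). In all, 5 of 8 members measured were past 1.5-fold, where 26.6% of all genes in the class were. Cells with UMIs of both Il1b and Nlrp3 made up 11.9% in Alopecia (18 of 151), 20% in No alopecia (9 of 45) and 34.7% in WT (35 of 101). Without the cells that carried T-cell RNA, Nlrp3 was at 81.0, 53.5 and 314 CPM and Tnf at 47.9, 37.5 and 181 CPM, so the difference from WT was as large without them.

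In macrophage-like cells, the resident phagocytes of the dermis, 6 of 9 members were past 1.5-fold between Alopecia and WT, all lower in Alopecia (background 26.2%), and 7 of 8 between No alopecia and WT (background 23.7%), 6 lower and Casp1 higher. Tnf was at 45.0 CPM in Alopecia (37.7 to 53.3), 70.7 in No alopecia (53.0 to 92.5) and 165 in WT (147 to 184). Nlrp3 was at 35.3, 56.1 and 87.8 CPM and Ptgs2 at 28.2, 12.01 and 68.4 CPM. Tnf of Alopecia was 0.273-fold of WT (0.221 to 0.335), and Nlrp3 0.402-fold (0.312 to 0.516). The summed level of 20 early response and heat shock genes, a list added after seeing the data, was 11128.3, 12966.5 and 17041.7 CPM in macrophage-like cells. In inflammatory myeloid-like cells it was 14192.6 CPM in Alopecia and 13593.3 in WT. The part of these genes in the levels of the members was not tested. Without cells carrying T-cell RNA Tnf was at 42.8, 120 and 197 CPM and Nlrp3 at 51.9, 166 and 202 CPM, so that Alopecia stayed low while No alopecia moved towards WT.

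Il1b of macrophage-like cells was at 286 CPM in Alopecia (267 to 306), 123 in No alopecia (99.0 to 151) and 430.5 in WT (402 to 461). Alopecia was 2.33-fold of No alopecia (1.88 to 2.92), opposite to the whole CD45+ library, and 5 of 8 members were past 1.5-fold between them (background 23.5%), Il1b, Il1r2 and Ptgs2 higher and Nlrp3 and Tnf lower. The class held 3 clusters whose shares differed between groups. A cluster led by Ccl8 had 394, 93 and 143 cells, a cluster led by Ccl12 and interferon-induced genes such as Rsad2 had 69, 17 and 126 cells, and a cluster led by Trem2 had 84, 13 and 20 cells in Alopecia, No alopecia and WT. Il1b was at 163, 61.5 and 176 CPM in the Ccl8-led cluster, at 636, 294 and 646 CPM in the Ccl12-led cluster and at 544, 610 and 881 CPM in the Trem2-led cluster. In the first and the second of these Alopecia was close to WT, so that most of the difference between those groups over the class was not present within them, and No alopecia was lowest.

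Tnf, Nlrp3, Ptgs2 and Il1rn also differed by macrophage cluster. Within the Ccl8-led cluster Tnf was at 35.2, 52.1 and 120 CPM, lower in both UP_Del libraries, while Nlrp3 was at 21.4, 18.9 and 19.6 CPM, with no such difference. Within the Ccl12-led cluster Tnf was at 72.3, 55.1 and 206 CPM and Nlrp3 at 72.3, 73.4 and 137 CPM, the No alopecia values from 3 and 4 UMIs. Within the Trem2-led cluster Tnf was at 65.9, 280 and 235 CPM and Nlrp3 at 65.9, 428 and 246 CPM, so that Alopecia was low and No alopecia, with 13 cells, stood above WT. Ptgs2 was at 20.01, 1.58 and 14.4 CPM in the Ccl8-led, 27.1, 73.4 and 108 CPM in the Ccl12-led and 60.4, 65.9 and 191 CPM in the Trem2-led cluster, with WT highest in the last pair but not in the Ccl8-led cluster. Il1rn was at 26.7, 9.46 and 18.6 CPM in the Ccl8-led and at 172, 33.0 and 115 CPM in the Trem2-led cluster. It was at 193, 771 and 240 CPM in the Ccl12-led cluster. Il1rn of Alopecia was thus below WT within the Ccl12-led cluster only, although it was lower over the class.

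Langerhans-like cells shared the lower Nlrp3 but not the lower Tnf. Nlrp3 was at 45.4 CPM in Alopecia (38.2 to 53.5), 48.1 in No alopecia (36.4 to 62.5) and 87.4 in WT (76.1 to 99.8), and Tnf at 111, 82.5 and 105 CPM. WT had the highest Nlrp3 in each of the 3 clusters, at 39.7, 51.3 and 69.1 CPM in the Cd207-led, 71.1, 57.5 and 141 CPM in the Tmem45b-led and 45.9, 28.4 and 116 CPM in the Osbp2- and Ltc4s-led cluster. Ptgs2 was at 26.5, 28.4 and 76.0 CPM, but 71 of the 188 UMIs in WT were in 1 cell, and without cells carrying T-cell RNA it was at 29.3, 37.0 and 23.4 CPM, with WT lowest. Of 8 members, 2 were past 1.5-fold between Alopecia and WT (background 19.1%), 3 between No alopecia and WT (background 17.9%) and 0 between Alopecia and No alopecia (background 22.3%).

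**Figure D4:**
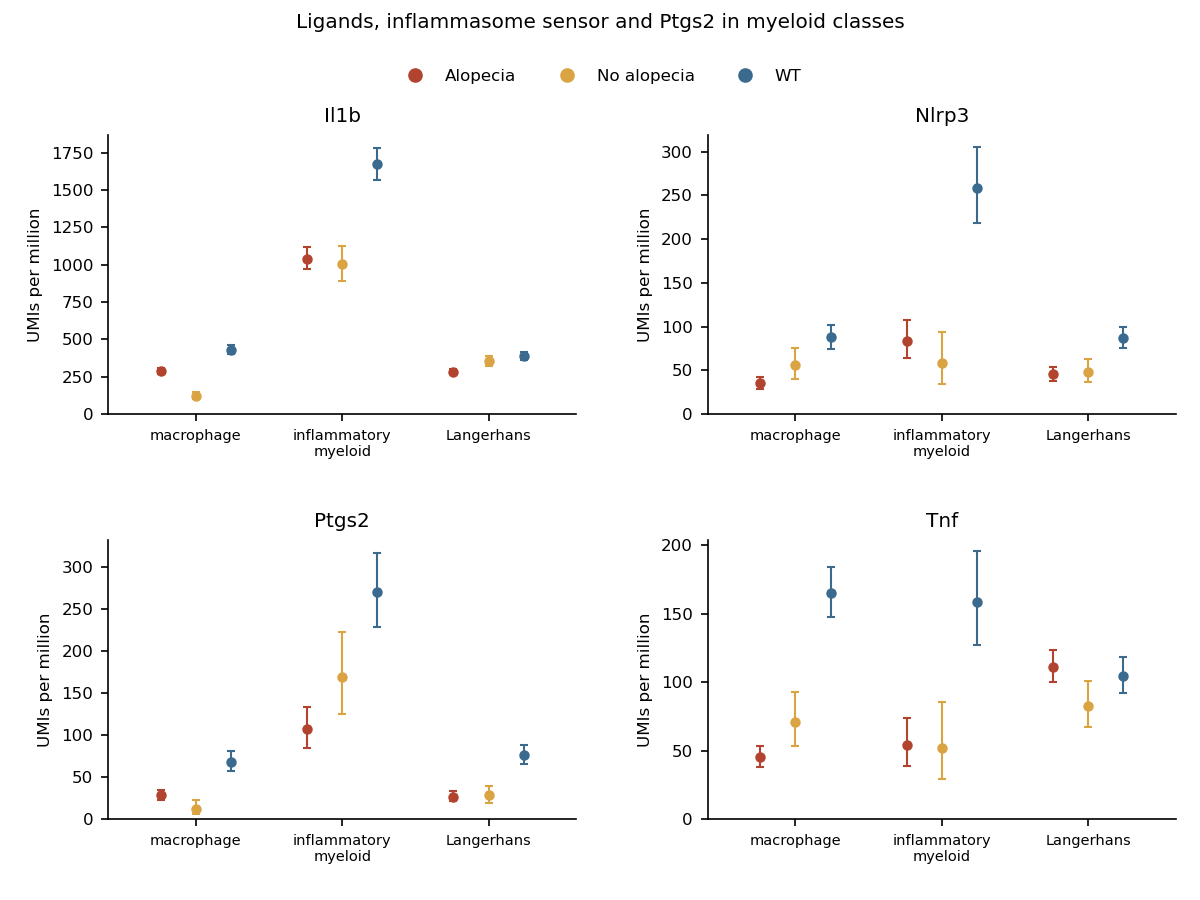
Il1b, Nlrp3, Ptgs2 and Tnf in macrophage-like, inflammatory myeloid-like and Langerhans-like cells of the CD45+ libraries, in CPM. Points are single libraries (Alopecia, No alopecia, WT from left to right) and bars exact Poisson intervals. WT is the highest library for all 4 genes in the first 2 classes, and Tnf of Langerhans-like cells does not follow that order.

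The Ptgs2 of the CD45- sort came from epidermal keratinocytes. Basal keratinocyte-like cells held 73.9% of its UMIs at 272 CPM, and suprabasal cells were at 59.7 CPM. After thinning, 14.9% of basal cells had a Ptgs2 UMI, against 0 of 1575 upper hair follicle-like cells. Within basal cells Ptgs2 was at 201 CPM in Alopecia (187 to 215), 277 in No alopecia (272 to 283) and 368 in WT (337 to 400). Within suprabasal cells it was at 32.4, 62.2 and 78.4 CPM. In both of these classes, therefore, WT was highest and Alopecia lowest, an order that differs from that of the whole libraries, where No alopecia was highest. Some classes with less Ptgs2 had No alopecia highest instead. Melanocyte-like cells were at 41.7, 51.1 and 6.23 CPM in Alopecia, No alopecia and WT (32, 77 and 4 UMIs). Bulge or outer root sheath-like cells were at 12.3, 18.6 and 8.41 CPM. Inner root sheath, hair shaft or matrix-like cells were at 2.86, 8.41 and 3.40 CPM. Fibroblasts, described further on, were highest in WT.

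The share of these cells differed between the libraries. Basal keratinocyte-like cells made up 7.51% of CD45- cells in Alopecia, 20.6% in No alopecia and 3.69% in WT, and suprabasal cells 5.67%, 12.6% and 5.52%. Fewer cells of a type and less RNA per cell cannot be told apart in whole-library values, and sort yield or digestion of the epidermis cannot be told apart from the group with 1 library each. Within basal cells Il1rn of Alopecia was 1.14-fold of No alopecia (0.993 to 1.30), while it was 0.624-fold in the whole libraries. Of the members measured in basal cells, 1 of 8 was past 1.5-fold between Alopecia and No alopecia (Il1a, background 15.6%), 3 of 8 between No alopecia and WT (Il1a and Il1b higher and Tnf lower, background 24%) and 2 of 7 between Alopecia and WT (Ptgs2 and Tnf lower, background 14.5%). Il1b is counted there because the 121 WT cells had 0 UMIs, against 86 in No alopecia. The lower bound of its ratio was 1.09-fold, so that a difference of 1.5-fold is not shown.

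The basal class held 2 clusters. The one led by Ifi202b, Serpinb2 and Ch25h, which also counted the AP-1 subunit gene Fosl1 among its leading genes, had 154, 1736 and 69 cells in Alopecia, No alopecia and WT, and the other 205, 1223 and 52. Ptgs2 in the first was at 361, 366 and 580 CPM and in the second at 48.0, 90.7 and 35.3 CPM. Il1a in the first was at 13.9, 19.3 and 14.7 CPM and in the second at 2.85, 2.76 and 0 CPM (6, 27 and 0 UMIs). Alopecia was thus within 1.5-fold of No alopecia for Il1a in both clusters, although it was past 1.5-fold lower over the class. The first cluster held 42.9%, 58.7% and 57.0% of the class in Alopecia, No alopecia and WT. Alopecia and No alopecia thus had like Ptgs2 levels within the Serpinb2-led cluster. The summed level of 20 early response and heat shock genes, a list added after seeing the data, was 23820, 30393 and 35876 CPM in basal cells of Alopecia, No alopecia and WT, and 13786, 26092 and 18519 CPM in the CD45- libraries. Its part in the Ptgs2 and Il1a levels was not tested.

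Fibroblast Ptgs2 was low, at 2.63 CPM in Alopecia (11 UMIs), 6.59 in No alopecia (50 UMIs) and 40.8 in WT (121 UMIs). Of the WT counts, 78 were in a cluster led by Rxfp1 and Sim2 that had 5, 0 and 32 cells in Alopecia, No alopecia and WT. In suprabasal keratinocyte-like cells that entered the CD45+ libraries, Ptgs2 was at 40.6, 120 and 142 CPM, again lowest in Alopecia.

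**Figure D5:**
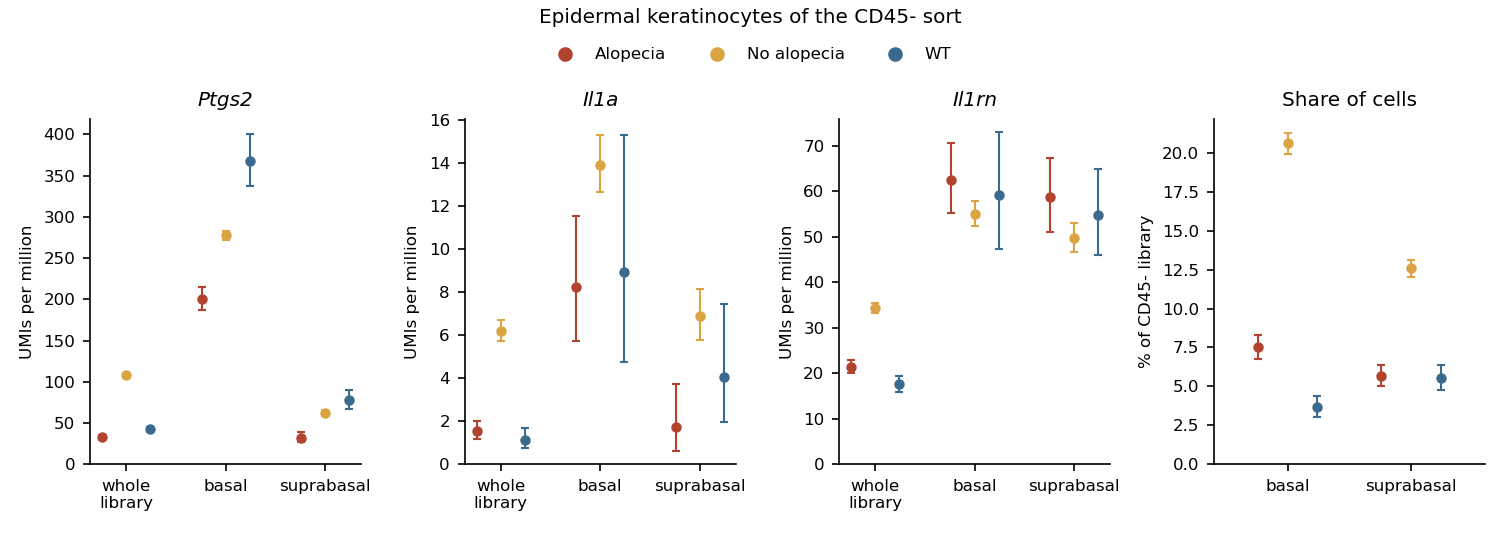
Ptgs2, Il1a and Il1rn in the whole CD45- library and in its basal and suprabasal keratinocyte-like cells, in CPM, and the share of those cells in the library, in percent. Points are single libraries with exact intervals (Poisson for levels, binomial for shares). The whole-library levels are highest in No alopecia, where both classes are most frequent, while Ptgs2 within both of these classes is highest in WT.

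Around the members, a list of 73 genes of the same pathways was read in the same way, and 12 of them encode NF-kappa-B subunits, their inhibitors and feedback regulators. In the CD45- libraries 10 of these 12 were at least 1.5-fold lower in Alopecia than in No alopecia and 0 higher (median log2 ratio -0.99, against 0.21 over all genes), where 5.71% of all genes were lower. Between No alopecia and WT 9 of 12 were higher (median 0.74, against -0.23), where 6.03% of all genes were. By TMM scaling 11 of 12 were lower and 11 of 12 higher, beside 10.7% and 12.9% of all genes. Tnfaip3, the A20 feedback inhibitor, was at 90.7 CPM in Alopecia, 307 in No alopecia and 139 in WT. Bcl3 was at 23.8, 68.3 and 29.4 CPM, and Ptges, which makes prostaglandin E2 from the Ptgs2 product, was 0.419-fold in Alopecia over No alopecia. The alarmin gene Il33 was at 17.2, 51.2 and 11.8 CPM. These whole-library values share the shift in keratinocyte shares given above. The summed early response and heat shock genes ran in the same order (13786, 26092 and 18519 CPM), and their part was not tested. Within blood endothelial-like cells 20 of 46 listed genes measured were lower in Alopecia than in No alopecia and 5 higher, beside 12.1% and 17.5% of all genes. In fibroblasts it was 5 of 56 lower and 6 higher, beside 6.39% and 7.85%. Melanocyte-like cells had 16 of 40 lower and 2 higher (13.7% and 17.1%). Lymphatic endothelial-like cells had 12 of 40 lower and 5 higher (12.9% and 11.2%). Basal keratinocyte-like cells had 9 of 55 lower and 5 higher (7.98% and 7.66%). In blood endothelial-like cells the summed early response and heat shock genes were at 16564.5, 28928.3 and 23406.1 CPM in Alopecia, No alopecia and WT. Their part there was not tested.

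In the CD45+ libraries 3 of the 12 NF-kappa-B genes (Nfkb2, Nfkbie and Bcl3) were lower in Alopecia than in No alopecia, where 7.65% of all genes were. Of the 12, 0 were past 1.5-fold between No alopecia and WT, and 0 between Alopecia and WT. Il18, the other IL-1 family cytokine that caspase-1 cleaves, was at 18.9, 15.9 and 10.2 CPM in Alopecia, No alopecia and WT, with its highest pooled level in Langerhans-like cells (74.8 CPM). The adaptor Pycard was at 84.3, 62.8 and 75.7 CPM and the pore-forming substrate Gsdmd at 23.6, 21.9 and 21.4 CPM, both within 1.5-fold. Il1rap, the shared co-receptor, was at 26.9, 28.1 and 23.8 CPM. The TNF receptor genes Tnfrsf1a (61.9, 78.7 and 57.1 CPM) and Tnfrsf1b (334, 446 and 461 CPM) also stayed within 1.5-fold. Hpgd, which encodes the enzyme that inactivates prostaglandins, was 2.49-fold in Alopecia over WT (2.23 to 2.78).

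A further inflammasome sensor in the list, Nlrp1a, separated UP_Del from WT in both sorts, by more in the CD45- sort. In the CD45- libraries it had 287 UMIs in Alopecia, 880 in No alopecia and 3 in WT, which is 7.92, 8.68 and 0.128 CPM. In basal keratinocyte-like cells it was at 14.3 and 12.1 CPM in Alopecia and No alopecia and had 0 UMIs in WT. The CD45+ libraries had 102, 75 and 21 UMIs of Nlrp1a (2.20, 3.84 and 0.573 CPM) in Alopecia, No alopecia and WT. Alopecia was 3.84-fold (2.39 to 6.48) and No alopecia 6.70-fold (4.08 to 11.4) of WT. In macrophage-like cells Nlrp1a was at 1.34, 4.0 and 3.13 CPM. Nlrp1b was at 7.71, 3.63 and 5.95 CPM in the CD45+ libraries. Nlrp1a (chr11:71092236-71144704) neighbours its near copy Nlrp1b, so that reads may be split or lost between them, and its level is uncertain for that reason. With these libraries the enhancer deletion cannot be told apart from any other genetic difference between the UP_Del and WT mice.

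By the correlation of log2(CPM + 1) over 45 cell classes of both sorts, with the libraries of a sort summed, the genes most like Il1b were Wfdc17 (Pearson r 0.975), Ccl9 (0.972) and Mgl2 (0.970), all known from myeloid cells. Those most like Nlrp3 were Lilr4b, Lilrb4a and Ccl9 (0.927 to 0.906), and Nlrp3 and Il1b themselves had an r of 0.885. For Tnf they were Stk17b, Arhgap9 and Ccdc88b (0.953 to 0.927). For Il1r2 the most alike gene was the co-receptor gene Il1rap (0.701), followed by Il6ra and Tcea3, and for Il1rn they were Plbd1, Ehf and Rbm47 (0.873 to 0.866). Likeness was weaker for Il1a (Mfsd1, 0.710), Ptgs2 (Depdc7, 0.716), Casp1 (Adam17, 0.658) and Il1r1 (Igf1r, 0.652). The points are classes that share libraries and free RNA, so these values describe the distributions only, and 10 of the 27 genes were also chosen by Spearman's rank correlation.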

How the data were processed

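Single-cell libraries from a 10x Genomics 5-prime kit were made from 6 sorted skin samples, 1 for each of 3 groups and 2 sorts. The deposited files hold raw UMI counts per gene and barcode, made by the authors with Cell Ranger 7.1.0 on mm10, per the submitters' processing notes. Barcodes with at least 500 UMIs, 300 genes and at most 10% mitochondrial UMIs were kept. Doublets were removed at a fixed rate of 0.4% of cells per 1000 cells, because the caller's automatic threshold marked 0 to 4 cells per library. Cells were clustered with scanpy 1.11.5 (2000 variable genes, 30 components, Leiden resolution 1) without the 9 genes and Il2ra, separately for each sort. A cluster was named from listed markers. Counts were summed per class and library and scaled to a total of 1000000 (CPM). Levels have exact Poisson intervals, shares exact binomial (Clopper-Pearson) intervals and ratios conditional binomial intervals, all at 95%. Within a class, ratios were computed where the 2 libraries had 100 or more of its cells each. Intervals and limits cover counting error only, and the limit for a count of 0 is 3 counts per library. With 1 library per group and sort there was no test; a gene was counted as past 1.5-fold with at least 20 UMIs over both libraries. The ratio code was checked on simulated data. From the pathway list a gene was named where its ratio was past 1.5-fold with an interval that excludes 1, at most 4 each way per comparison, or where it is a direct partner of a member. For likeness the 3 genes with the highest correlation were named. The 9 genes, lists and markers were chosen with earlier results of these data known. Alternatives covered cell filters, doublets, scaling, clustering, thinning, the fold and cells with T-cell RNA.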

Additional observations from a re-analysis of the deposited data

Results flagged for a closer look

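For 3 comparisons the CD45+ and CD45- libraries of the same groups moved in opposite directions. Whether the sorts differ was not tested, since each value rests on 1 library per group. Il1r2 of Alopecia over No alopecia had a log2 ratio of -0.081 in the CD45+ libraries and 0.17 in the CD45- libraries, where TMM scaling gave -0.07. Within the main source of each sort, Langerhans-like cells and fibroblasts, the ratio was above 1 in both, at 1.21-fold and 1.35-fold. Within the Langerhans-like clusters Alopecia and No alopecia were close, at 908 against 944, 2090 against 2080 and 2367 against 2156 CPM. Ptgs2 of No alopecia over WT was -0.58 in the CD45+ libraries and 1.34 in the CD45- libraries, and in basal keratinocyte-like cells it was 0.755-fold, lower in No alopecia. Il1b of Alopecia over WT was 0.10 in the CD45+ libraries and -0.95 in the CD45- libraries, and the second value rests on 1 WT cell with 23 UMIs.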

How the results depend on the processing

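Each of 328 log2 ratios of the members was recomputed under up to 15 alternatives, giving 2861 values. Of these, 2644 stayed within the counting interval of the reported ratio, 207 fell outside it and 10 turned round. The 10 are log2 ratios as follows. Without cells carrying T-cell RNA, No alopecia over WT was 0.051 for Il1rn in macrophage-like cells, 0.66 for Ptgs2 in Langerhans-like cells and 1.89 for Ptgs2 in the myeloid class with T-cell genes, and Alopecia over WT was 0.33 for Ptgs2 in Langerhans-like cells. Without the cell with most UMIs, a choice made after seeing the data, Alopecia over No alopecia was 0.11 for Ptgs2 in the Trdv5- and Tcrg-V4-led cells and 0.26 for Il1r2 in mast-like cells, No alopecia over WT was -0.64 for Il1r2 in mast-like cells, and Alopecia over WT was 0.49 for Il1b in the CD45- library. At Leiden resolution 2, Nlrp3 of Alopecia over No alopecia in type 2 conventional dendritic-like cells was 0.044, and with means over cells Il1r2 in bulge or outer root sheath-like cells was 0.18. Beyond the removed cells themselves, the cause was not tested.

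Counts of members changed as follows. At 2-fold they were 0, 0 and 0 in the CD45+ libraries (Alopecia over No alopecia, No alopecia over WT, Alopecia over WT), beside 7.62%, 7.77% and 5.44% of all genes, and 2, 2 and 0 in the CD45- libraries, beside 12.9%, 14.5% and 3.73%. They were 3 and 4 in macrophage-like cells for the first pair of comparisons (8.70% and 7.80% of all genes), 1 and 1 in Langerhans-like cells for No alopecia and Alopecia over WT (5.43% and 5.03%), 3 in inflammatory myeloid-like cells (9.27%), and 0 and 1 in basal cells for Alopecia over No alopecia and over WT (6.11% and 3.99%). The shares of all genes at 2-fold were added after seeing the data. The NF-kappa-B genes past 2-fold in the CD45- libraries were 5 lower for Alopecia over No alopecia (2.12% of all genes) and 2 higher for No alopecia over WT (2.50%). For Alopecia over No alopecia, macrophage-like cells had 3 members at Leiden resolution 2 and 8 without cells carrying T-cell RNA, Langerhans-like cells 1 with means over cells and 2 without cells carrying T-cell RNA, and basal cells 2 without the cell filter. No paired analysis was possible because each group has 1 library per sort and the labels give no replicate numbers. Il1a within leukocyte classes and Nlrp3 in CD45- cells were too sparse for statements on differences.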

Other observations

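Nlrp1a was listed among the inflammasome genes and is not one of the 9. In a keratinocyte class of the CD45- sort led by Skint6 and Skint5 it was at 35.6 CPM in Alopecia and 53.1 CPM in No alopecia, with 0 UMIs in WT. In suprabasal keratinocyte-like cells it was at 14.9 and 10.8 CPM, with 0 UMIs in WT, and in the suprabasal cells of the CD45+ sort at 13.5 and 30.7 CPM, with 0 UMIs in WT. The 3 UMIs of the WT CD45- library were in inner root sheath, hair shaft or matrix-like cells.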
